A study of Mus musculus with 23 samples.

Results

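The genes described here are the receptors for fibroblast growth factors (FGFs) and the FGFs made by stromal cells, in mouse mammary tumors in which the cytokine IL-38 was present, neutralized or deleted. They are 9 genes of the 47643 measured, namely the 5 receptors Fgfr1 (ENSMUSG00000031565), Fgfr2 (ENSMUSG00000030849), Fgfr3 (ENSMUSG00000054252), Fgfr4 (ENSMUSG00000005320) and Fgfrl1 (ENSMUSG00000008090), and the 4 ligands Fgf1 (ENSMUSG00000036585), Fgf2 (ENSMUSG00000037225), Fgf7 (ENSMUSG00000027208) and Fgf10 (ENSMUSG00000021732). The family was picked by name after Fgfrl1 had been seen to be higher with IL-38 inhibited. The values of Fgfrl1 are therefore given as a description throughout, without a test.

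Tumors came from female PyMT mice on a C57BL/6 background, in which the polyoma virus middle T oncoprotein causes mammary carcinoma, and each mouse was given its antibody weekly over 5 weeks. In the neutralization experiment, PyMT WT mice received a human IgG1 isotype control (IgG, n = 5) or an antibody against IL-38 (anti-IL-38, n = 6), starting once the first tumor had reached a set size. In the γδ TCR experiment, treatment started at a fixed age, and PyMT WT mice received Armenian hamster IgG (WT_IgG, n = 4), while PyMT IL-38 KO mice received the same IgG (KO_IgG, n = 4) or an antibody that blocks the γδ T-cell receptor (KO_gdTCR, n = 4). Whole tumors were dissociated and 1 library of 3′ ends of mRNA was made per sample, so the values are averages over tumor, stromal and immune cells, in which fewer cells of a type and less RNA per cell cannot be told apart.

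FGFs are secreted factors that bind, together with heparan sulfate on the cell surface, to receptor tyrosine kinases and switch on the Ras-ERK cascade. In the mammary gland the receptor FGFR2 sits on epithelial cells and answers FGF7 and FGF10 from the surrounding stroma, whereas FGFR1 is shared by epithelial and stromal cells. FGFRL1 resembles the other receptors outside the cell but has no kinase domain. Reads from the 3′ end do not tell apart the splice forms of FGFR1 to FGFR3 that decide which ligand is bound.

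The libraries held 6273049 to 15879164 reads on genes, with a median of 12625557. In all, 5 libraries, the 4 of KO_gdTCR and KO_IgG replicate 4, stood apart from the other 18, with 6273049 to 8794202 reads against 10138353 to 15879164, with 1.31 to 1.98% of reads on processed pseudogenes against 0.0943 to 0.191%, and with 11.3 to 20.1% on Gm42418, a gene that overlaps ribosomal RNA, against 2.62 to 5.70%. Il1f10, the gene of IL-38, had a read in 0 of 23 libraries, so the genotype labels could not be checked. All 12 luminal epithelial markers had reads in every library, and their summed level ranged from 1943 to 5713 CPM (the reads of a gene scaled by the total of the library).

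Fgfr1, the receptor of both tumor and stromal cells, was read in every library, at 81.8 to 284 CPM. Its mean level was lowest in IgG (121 ± 37.7 CPM, SD, n = 5), followed by WT_IgG (132 ± 36.2), anti-IL-38 (137 ± 23.4), KO_IgG (193 ± 29.7) and KO_gdTCR (207 ± 62.4). Of the steps in this order, the one from anti-IL-38 to KO_IgG exceeded the larger SD of the 2 groups.

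Fgfr2, the epithelial receptor, ranged 42.7-fold, from 1.41 CPM in IgG replicate 5 to 60.4 CPM in anti-IL-38 replicate 2, the widest range among the 7 members with a read in every library. Group means ran from 8.34 ± 5.12 CPM in IgG through 16.98 ± 6.56 in KO_IgG, 19.5 ± 7.88 in WT_IgG and 22.4 ± 6.22 in KO_gdTCR to 26.9 ± 18.8 in anti-IL-38. Only the step from IgG to KO_IgG was larger than the SD.

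Fgfr3 had 1.27 to 26.8 CPM, and its group means ran from IgG (2.90 ± 1.58 CPM) to anti-IL-38 (5.23 ± 2.57), WT_IgG (6.23 ± 2.36), KO_gdTCR (7.99 ± 4.06) and KO_IgG (13.3 ± 9.21), with no step beyond the larger SD. Fgfr4 was near the limit of detection, with 1 to 24 reads per library and 3 reads or fewer in 7 of 23 libraries. Its group means lay between 0.402 ± 0.327 CPM in IgG and 0.798 ± 0.737 CPM in KO_IgG and were not separated by any step beyond the SD.

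Fgfrl1, the receptor without a kinase, had 503 to 2093 reads per library, or 39.1 to 161 CPM. The means were 57.0 ± 18.2 CPM in IgG, 70.0 ± 13.8 in WT_IgG, 103 ± 38.6 in anti-IL-38, 105 ± 20.9 in KO_gdTCR and 110.3 ± 39.1 in KO_IgG. Both control groups of WT mice thus stood at the lower end, but no neighbours in this order were further apart than the larger SD. CPM of the 5 libraries that stand apart is lowered by their reads on Gm42418.

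**Figure D1:**
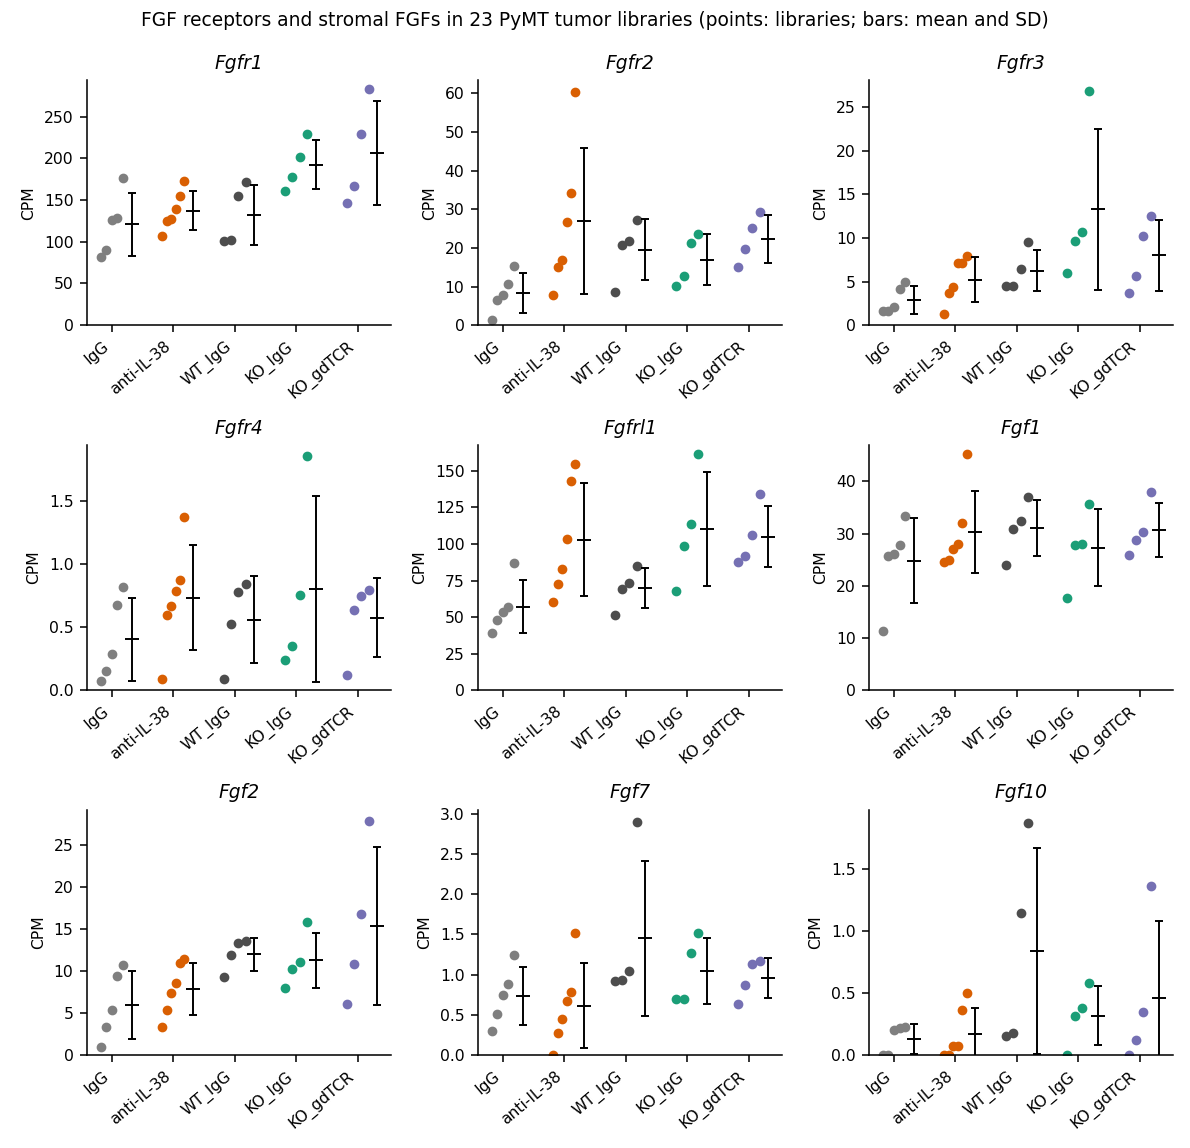
Level of each of the 9 members in CPM (vertical axes, linear, from 0) in the 5 groups (horizontal axes); each point is a library, and the bars give the group mean and SD, with SD bars that would pass below 0 ending there. Fgfr2 runs from 1.41 to 60.4 CPM, Fgfrl1 is lowest in IgG and WT_IgG, and Fgfr4, Fgf7 and Fgf10 stay below 3 CPM.

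Among the ligands, Fgf1, which binds all FGF receptors, was the steadiest in level, at 11.3 to 45.3 CPM. Its group means were within 24.8 ± 8.18 CPM in IgG and 31.1 ± 5.40 CPM in WT_IgG, with no step beyond the SD. Fgf2, the basic FGF of stroma and myoepithelium, ranged 28.7-fold, from 0.968 CPM in IgG replicate 5 to 27.8 CPM in KO_gdTCR replicate 2. Means of Fgf2 were 5.95 ± 4.06 CPM in IgG, 7.85 ± 3.15 in anti-IL-38, 11.3 ± 3.31 in KO_IgG, 12.01 ± 1.97 in WT_IgG and 15.4 ± 9.37 in KO_gdTCR, and the step from anti-IL-38 to KO_IgG was larger than the SD. Exons of Fgf2 overlap those of Nudt6 on the opposite strand, which had 4.75 to 15.5 CPM. Whether the counting used the strand is not given in the sources used here, so reads of this gene pair may not be told apart. Exons of Fgfr2 likewise overlap in the annotation with Ctbp2 on the same strand, which had 71.0 to 208 CPM.

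Both paracrine ligands of the epithelial receptor were scarce. Fgf7, the keratinocyte growth factor, had 0 to 33 reads per library and group means between 0.615 ± 0.523 CPM in anti-IL-38 and 1.45 ± 0.967 CPM in WT_IgG. Fgf10 had no read in 6 libraries, 3 reads or fewer in 15 and at most 24. A count of 0 allows up to 3 counts, or 0.189 to 0.478 CPM depending on the library, and this limit and all others from counts cover counting error only. Fgf10 group means from 0.129 ± 0.118 CPM in IgG to 0.835 ± 0.831 CPM in WT_IgG therefore lie close to what these depths can show.

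The other 18 FGF ligands were mostly scarce or without reads. No read was found for Fgf3, Fgf20, Fgf22 and Fgf23, and reads in every library were found for Fgf9, Fgf11 and Fgf13. Of these, Fgf11 (0.311 to 3.41 CPM) and Fgf13 (0.464 to 10.5 CPM), both members of the group that stays inside the cell, reached a median of 1 CPM. The hormone-like Fgf15, Fgf21 and Fgf23 bind with the co-receptors Kl and Klb. Kl had a read in 2 libraries and Klb in 10, with at most 0.176 and 0.694 CPM.

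To ask what neutralizing IL-38 did to these genes, anti-IL-38 tumors were compared with IgG tumors on normalized counts, that is, reads divided by a size factor of the library. Of the 9 members, 8 passed the filter of a mean of at least 5 normalized counts, and Fgf10 did not. Apart from Fgfrl1, 7 were tested with limma and 0 had an adjusted p under 0.05, where 0% of all 16002 genes did. The count under an unadjusted p of 0.05 was 1 by limma and by edgeR (Fgfr2), where 10.5% and 10.7% of all genes were, and 2 by DESeq2 (Fgfr2 and Fgfr3), where 11.7% were. Means were higher with anti-IL-38 for 6 of the 7, with a median log2 difference of 0.73 by limma and 0.44 by edgeR and by DESeq2, against 0.00 over all genes by limma, and lower for Fgf7. None of the 9 members had groups that did not overlap, where 0.4% of all genes lay wholly higher and 0.644% wholly lower.

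Fgfr2 was at 186, 84.6, 138, 95.8 and 18.1 normalized counts in IgG replicates 1 to 5, and at 101 (lowest), 279 (median) and 789.9 (highest) in the 6 anti-IL-38 tumors. Of the 6, 5 anti-IL-38 tumors lay above every IgG tumor, and 1 lay among them. The mean was 349 ± 243 against 105 ± 62.7 normalized counts, and the log2 difference was 1.78 ± 0.57 (SE, limma adjusted p = 0.412). Without IgG replicate 5 it was 1.25. With DESeq2 the adjusted p was 0.0679, and over all alternatives it ran from 0.0679 to 0.589, so the difference did not pass the threshold in any of them. The summed level of the luminal markers was 1943 to 4054 CPM in IgG and 2905 to 5713 CPM in anti-IL-38, with all 12 markers read in every library of both groups. Their part in the Fgfr2 result was not tested.

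Smaller differences were found for the other receptors with a kinase. Fgfr3 was at 25.5, 53.3, 20.5, 20.3 and 63.9 normalized counts in IgG and at 18.5, 72.2 and 104 (lowest, median, highest) in anti-IL-38, so the groups overlapped over most of their range. Its log2 difference was 0.83 ± 0.46 (SE, limma adjusted p = 0.524). Fgfr1 stood at 1806 ± 395 against 1529 ± 495 normalized counts (log2 difference 0.27 ± 0.20, adjusted p = 0.630), and Fgfr4 at 9.61 ± 5.60 against 5.10 ± 4.21 (0.86 ± 0.66, limma adjusted p = 0.638). Leaving out 1 library moved the difference of Fgfr1 between 0.15 (without IgG replicate 2) and 0.43 (without IgG replicate 5), and that of Fgfr4 was 0.52 without IgG replicate 5.

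Fgf2 was at 40.6, 136, 122, 66.3 and 12.4 normalized counts in IgG and at 43.1, 104 and 144 (lowest, median, highest) in anti-IL-38. IgG replicate 5 was the lowest library for Fgf2, as it was for Fgfr2 and for the luminal and fibroblast marker sums. The log2 difference of Fgf2 was 0.73 ± 0.53 (SE, limma adjusted p = 0.620), and it was 0.21 without that library. Fgf1 (394 ± 87.6 against 312 ± 102 normalized counts) differed by 0.39 ± 0.24 on the log2 scale (limma adjusted p = 0.558), and by 0.14 without IgG replicate 3. Fgf7 was the member with the lower mean in anti-IL-38, 7.89 ± 6.84 against 9.27 ± 4.44 normalized counts, and had a log2 difference of -0.57 ± 0.70 (adjusted p = 0.778), which was -0.04 without anti-IL-38 replicate 3, its only library at 0.

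**Figure D2:**
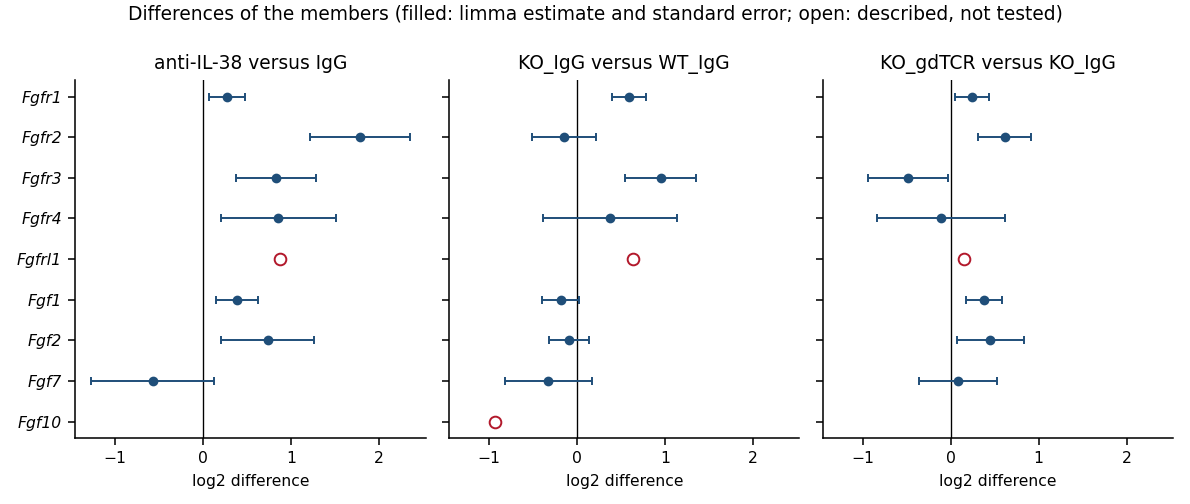
Difference between groups on the log2(normalized count + 1) scale (horizontal axes) for each member that passed the filter (rows) in the 3 comparisons (panels); filled points with bars are limma estimates with their standard error, and open points, for Fgfrl1 and for Fgf10, are differences that were not tested. Fgfr2 has the largest difference with anti-IL-38 (1.78 ± 0.57), and 0 of the filled points passed an limma adjusted p of 0.05.

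Fgfrl1 was the gene whose level chose the family, and its values with IL-38 inhibited are a description. In IgG replicates 1 to 5 it was at 475, 679, 629.9, 1076 and 731 normalized counts, and the anti-IL-38 tumors were at 787 (lowest), 1271 (median) and 1988 (highest). WT_IgG replicates 1 to 4 were at 974, 625, 858 and 806 normalized counts, and KO_IgG replicates 1 to 4 at 1163, 1884, 1362 and 822. In both experiments the groups overlapped, since 3 of 6 anti-IL-38 tumors lay above every IgG tumor and 3 of 4 KO_IgG tumors above every WT_IgG tumor.

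The log2 difference of Fgfrl1 was 0.87 for anti-IL-38 against IgG and 0.64 for KO_IgG against WT_IgG. Over both experiments, the 10 tumors with IL-38 inhibited had 1333 ± 462 normalized counts and the 9 controls had 762 ± 188, a 1.75-fold ratio of means and a log2 difference of 0.77. All 10 were above the median of the controls, 6 were above every control, and the difference stayed between 0.69 and 0.84 when any 1 library was left out. KO_IgG replicate 4, the lowest of its group, is also the one among these libraries with high pseudogene and Gm42418 reads. The difference between KO_IgG and WT_IgG was 0.84 without that library, and 0.44 without KO_IgG replicate 2, the highest of the group.

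**Figure D3:**
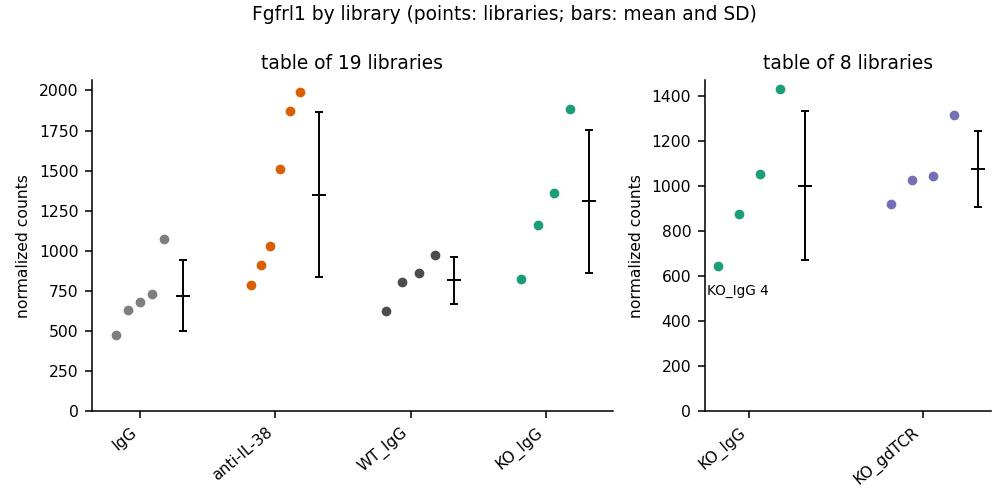
Normalized counts of Fgfrl1 (vertical axes, linear, from 0) by group in the table of 19 libraries (left) and the table of 8 libraries (right), which were scaled separately and share the KO_IgG tumors; points are libraries, ordered by value within a group, and bars give the mean and SD. The anti-IL-38 and KO_IgG tumors reach 1988 and 1884 where the controls reach 1076, and KO_gdTCR (918 to 1313) lies within the range of KO_IgG (644 to 1428).

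The antibody and the knockout are separate ways of removing IL-38, and their effects on each member were compared with an interaction term over the 19 libraries. For Fgfrl1, the differences of 0.87 and 0.64 given above lay 0.24 apart, or 0.03 apart without KO_IgG replicate 4 and 0.43 without KO_IgG replicate 2, which is a description. Of the 7 members tested, 0 passed the threshold, where 0.00612% of 16352 genes did. DESeq2 and edgeR called 0 of the 7 as well, against 0.0612% and 0% of all genes. One member, Fgfr2, had an unadjusted p under 0.05 by each of limma, edgeR and DESeq2, where 7.67%, 8.27% and 8.75% of all genes did, with a log2 difference of 1.78 for the antibody and -0.14 for the knockout. That difference of 1.92 ± 0.79 had an adjusted p of 0.590 by limma. Isotype, start of treatment and way of inhibition differed together between the experiments and cannot be told apart.

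Tumors without the IL-38 gene were next compared with WT tumors under the same control IgG. All 9 members passed the filter, but Fgf10 did so only through its WT_IgG values and, like Fgfrl1, is described without a test. Of the 7 tested, 0 passed the threshold with limma, where 0.00604% of 16563 genes did. Fgfr1 and Fgfr3 had an unadjusted p under 0.05 by each of limma, edgeR and DESeq2, as did 12.1% of all genes by limma, 13.4% by edgeR and 2152 of the 16563 by DESeq2. The median log2 difference of the 7 was -0.09, against 0.01 over all genes, with 3 higher and 4 lower. Summed adipocyte markers were at 82.1 to 335 CPM in KO_IgG and 364 to 499 in WT_IgG, basal markers at 352 to 644 and 575 to 1217 CPM, leukocyte markers at 763 to 1952 and 1671 to 2354 CPM, and luminal markers at 3608 to 4297 and 2960 to 4331 CPM. The leukocyte sum of 763 CPM was that of KO_IgG replicate 4. The part of these markers in the values of the members was not tested. Groups overlapped for each of the 9, where 3.66% of all genes lay wholly higher and 3.41% wholly lower.

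Fgfr1 was at 1174, 1215, 1811 and 1987 normalized counts in WT_IgG and at 2385, 2678, 1933 and 2163 in KO_IgG. Of the 4, 3 KO_IgG tumors lay above all WT_IgG tumors, and the remaining one lay just under the highest of them. The log2 difference was 0.59 ± 0.19 (SE, limma adjusted p = 0.291), and the adjusted p ran from 0.124 to 0.628 over the alternatives. Fgfr3 was at 51.8, 53.7, 75.2 and 110.1 normalized counts in WT_IgG and at 114, 312, 128 and 73.3 in KO_IgG, a log2 difference of 0.95 ± 0.40 (limma adjusted p = 0.382). Its mean in KO_IgG owed much to replicate 2, and without that library the difference was 0.55.

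The other receptors and the ligands showed little separation of KO_IgG from WT_IgG. Fgfr2 had 202 ± 78.9 normalized counts in KO_IgG and 227 ± 89.9 in WT_IgG (log2 difference -0.14 ± 0.36, limma adjusted p = 0.895), and Fgfr4 had 9.43 ± 8.55 and 6.57 ± 4.08 (0.38 ± 0.76, adjusted p = 0.864). Fgf1 differed by -0.19 ± 0.21 (limma adjusted p = 0.738), Fgf2 by -0.09 ± 0.23 (adjusted p = 0.887) and Fgf7 by -0.33 ± 0.49 (adjusted p = 0.813). Fgf10 was at 1.99, 22.6, 1.79 and 13.2 normalized counts in WT_IgG and at 3.74, 0, 4.53 and 7.05 in KO_IgG, and the means differed by -0.93 on the log2 scale, or by -0.29 without KO_IgG replicate 2, its library at 0.

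Blocking the γδ TCR was examined in mice without IL-38, with the 4 KO_IgG libraries as controls, which also entered the contrast that chose Fgfrl1. All 4 KO_gdTCR libraries and KO_IgG replicate 4 share the low depth and high pseudogene and Gm42418 reads given above, so this difference between libraries and the blockade cannot be told apart except through that 1 control. Fgfrl1 is again described without a test. Of the 7 members tested, 0 passed the threshold with limma, where 0% of 16481 genes did, and 0 had an unadjusted p under 0.05 by limma, edgeR or DESeq2, where 21.7%, 18.7% and 19.4% of all genes did. Without KO_IgG replicate 4, limma called 14.3% of 16480 genes and again 0 of the 7 members, with 1 (Fgfr2) under an unadjusted p of 0.05, where 26.2% of all genes were. No member had groups that did not overlap, where 4.57% of all genes lay wholly higher and 4.98% wholly lower.

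Fgfrl1 was at 918, 1313, 1042 and 1025 normalized counts in KO_gdTCR and at 873, 1428, 1052 and 644 in KO_IgG, in the scaling of the smaller table. The KO_gdTCR values lay inside the range of KO_IgG. The means differed by 0.15 on the log2 scale, by -0.04 without KO_IgG replicate 4 and by 0.34 without KO_IgG replicate 2.

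Fgfr2 was at 158, 287, 224 and 244 normalized counts in KO_gdTCR and at 210.0, 113, 93.3 and 203 in KO_IgG. Of the 4, 3 KO_gdTCR tumors were above every KO_IgG tumor, and the log2 difference was 0.61 ± 0.30 (SE, limma adjusted p = 0.267). Without KO_IgG replicate 3 it was 0.40 (limma adjusted p = 0.557) and without KO_IgG replicate 4 it was 0.77 (adjusted p = 0.122), and the adjusted p ran from 0.122 to 0.557 over all alternatives. Fgf1 had 316 ± 38.4 against 248 ± 63.4 normalized counts (0.38 ± 0.21, limma adjusted p = 0.328) and Fgf2 154 ± 87.5 against 102 ± 28.3 (0.45 ± 0.38, adjusted p = 0.549). The difference of Fgf1 was 0.19 without KO_IgG replicate 3.

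Fgf2 in KO_gdTCR was at 114, 272, 68.8 and 163 normalized counts, and its difference was 0.12 without replicate 2 and 0.78 without replicate 3. Fgfr1 differed by 0.24 ± 0.19 (limma adjusted p = 0.515), Fgfr3 by -0.48 ± 0.45 (adjusted p = 0.591), Fgfr4 by -0.11 ± 0.73 (adjusted p = 0.950) and Fgf7 by 0.08 ± 0.44 (adjusted p = 0.940). The difference of Fgfr1 was 0.096 without KO_gdTCR replicate 2 and 0.38 without KO_gdTCR replicate 1. That of Fgfr3 was -0.09 without KO_IgG replicate 2, its highest library, and -0.76 without KO_IgG replicate 4. Fgf10 did not pass the filter, with at most 13.2 normalized counts in KO_gdTCR and 5.52 in KO_IgG. Leukocyte markers summed to 678 to 861 CPM in KO_gdTCR and to 1395, 1527, 1952 and 763 in KO_IgG replicates 1 to 4. Thus KO_IgG replicate 4, which shares the low depth and high pseudogene reads of the KO_gdTCR libraries, lay within their range. Fibroblast markers summed to 3184 to 10426 CPM in KO_gdTCR and 4069 to 4975 in KO_IgG. The part of these markers in the values of the members was not tested.

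The makeup of the tumors was set beside the members across the 19 libraries of the larger table. Each of the 8 members that passed the filter was related to the mean log2 level of luminal, basal and myoepithelial, fibroblast and adipocyte markers, which made 32 relations. The p-values come from permutation tests with 100000 resamples, adjusted over the 32. For the genotype comparison alone every permutation was used instead of resamples. Libraries were permuted without regard to group, so each relation also holds differences between groups. Relations within an experiment likewise span both of its groups. By Pearson's r 7 relations passed and by both measures 3 did. They concerned Fgfr2 with luminal and basal markers and Fgfr3 with fibroblast markers, while Fgf2 passed by r with all 4 lists.

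Fgfr2 and the luminal markers had r = 0.88 (adjusted permutation p = 0.00032) and rho = 0.76 (adjusted permutation p = 0.00864) over 19 libraries. Without IgG replicate 5 and anti-IL-38 replicate 2, the libraries farthest from the median of the markers, r was 0.66 (adjusted permutation p = 0.0483). It was 0.90 within the 11 libraries of the neutralization experiment (adjusted permutation p = 0.0131) and 0.76 within the 8 of the genotype comparison (adjusted permutation p = 0.512, unadjusted 0.0316). In the neutralization experiment alone 0 relations passed by both measures, so this one did not pass by rho there. With basal markers Fgfr2 had r = 0.74 and rho = 0.64 (adjusted permutation p = 0.00907 and 0.0471). This relation had r = 0.48 without the same pair of libraries (adjusted permutation p = 0.191). Its r within the experiments was 0.75 and 0.56, with adjusted permutation p of 0.0913 and 0.512.

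Fgfr3 and the fibroblast markers had r = 0.58 and rho = 0.72 (adjusted permutation p = 0.0398 and 0.0123). Neither experiment alone showed this relation past the threshold, with r = 0.44 and 0.40 (adjusted permutation p = 0.394 and 0.543), and without the pair of libraries farthest in the fibroblast markers, IgG replicate 5 and anti-IL-38 replicate 3, r was 0.61 (adjusted permutation p = 0.0621). Fgf2 and the luminal markers had r = 0.74 but rho = 0.45 (adjusted permutation p = 0.00907 and 0.205). Leaving out the same pair as for Fgfr2 gave r = 0.62 (adjusted permutation p = 0.0555), and leaving out IgG replicate 5 alone gave 0.50 (adjusted permutation p = 0.135). Within the neutralization experiment r was 0.82 and within the genotype comparison 0.46 (adjusted permutation p = 0.0299 and 0.512). By rho the relation of Fgf2 did not pass in the neutralization experiment either.

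Leaving out the farthest pair also brought in a relation that was not there over all libraries. Fgfr1 and the fibroblast markers had r = 0.11 over the 19 libraries (adjusted permutation p = 0.817) and r = 0.67 and rho = 0.67 over the remaining 17 (adjusted permutation p = 0.0483 and 0.049). Within the neutralization experiment r was -0.23, and within the genotype comparison 0.53.

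The relations of Fgfrl1 are a description, since its values in these libraries chose the family. Its r was 0.29 with luminal, 0.19 with fibroblast, -0.02 with basal and -0.29 with adipocyte markers. With the adipocyte markers r was -0.31 within the 11 libraries of the neutralization experiment and -0.75 within the 8 of the genotype comparison, where rho was -0.93. Among the members themselves, as a description over the same 19 libraries, Fgfr2 and Fgf2 varied most alike (r = 0.71), followed by Fgfrl1 with Fgfr4 (0.61) and Fgfrl1 with Fgfr1 (0.54).

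**Figure D4:**
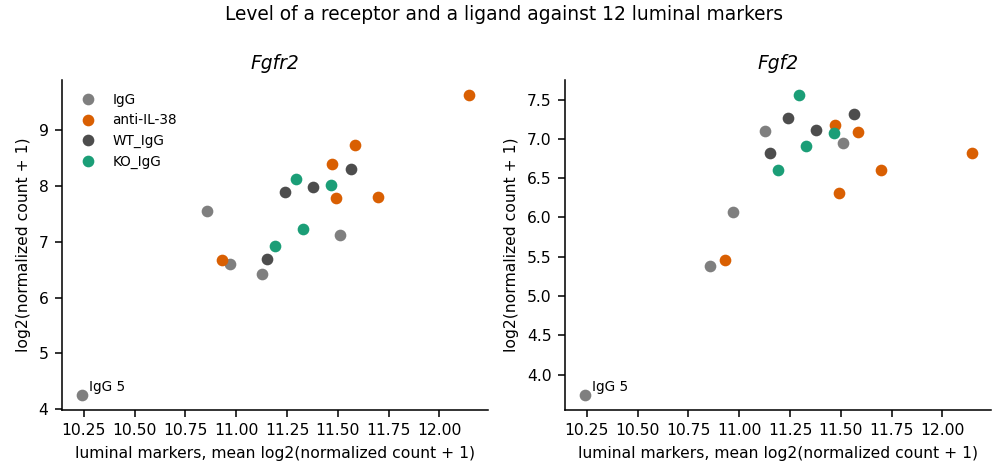
Level of Fgfr2 (left) and Fgf2 (right) as log2(normalized count + 1) on the vertical axes against the mean log2 level of the 12 luminal markers on the horizontal axes, with each of 19 libraries as a point colored by group; the axes do not start at 0. IgG replicate 5 is lowest on each axis, and r is 0.88 for Fgfr2 and 0.74 for Fgf2.

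Genes that varied most like Fgfrl1 were looked for among the 16351 other genes that passed the filter, by Pearson's r of log2 levels over the 19 libraries. The 5 highest were Lrp5 (r = 0.82), Ltbp1 (0.82), Kdelc1 (0.80), Cyp2u1 (0.79) and Evpl (0.79). Lrp5 encodes a Wnt co-receptor, Ltbp1 a binding protein of latent TGF-β and Evpl a protein of the cornified envelope. Within the 11 libraries of the neutralization experiment these r were 0.75 to 0.85, and within the 8 of the genotype comparison 0.78 to 0.90. Being the highest of many, these values are a description.

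The other genes of the pathway were taken from 4 lists, of FGF ligands, co-receptors and binding proteins, receptor adaptors and signal transducers, and feedback and target genes of ERK. In each comparison 62 of them were tested. With limma 0 were called with anti-IL-38 against IgG, in KO_IgG against WT_IgG and in KO_gdTCR against KO_IgG, and 5, 12 and 13 of the 62 had an unadjusted p under 0.05, where 10.5%, 12.1% and 21.7% of all genes did. By edgeR 0 were called in each, with 3, 10 and 11 under that p, where 10.7%, 13.4% and 18.7% of all genes were, and DESeq2 called 0, 1 and 7, where it called 0.469%, 1.8% and 6.25% of all genes. The medians of the 62 were 0.10, 0.09 and 0.02 on the log2 scale.

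With anti-IL-38, co-receptors and binding proteins were higher in 15 of 17 cases by limma, with a median log2 difference of 0.35. Over all genes 50.2% were higher by limma, with a median of 0.00. By edgeR and DESeq2 14 of the 17 were higher, with medians of 0.29 and 0.30. Of the 17, 0 passed the test by limma, edgeR or DESeq2. Fibroblast markers summed to 1601 to 4795 CPM in anti-IL-38 (median 4467) and 1356 to 4324 in IgG (median 2665). Basal markers summed to 128 to 2769 and 151 to 600 CPM, endothelial markers to 147 to 222 and 115 to 254, and leukocyte markers to 1790 to 2514 and 2159 to 3058. The part of these markers in the values of the pathway genes was not tested. Perlecan, the basement membrane heparan sulfate proteoglycan encoded by Hspg2, had 503 ± 211 against 281 ± 97.3 normalized counts (log2 difference 0.81 ± 0.26, limma adjusted p = 0.412). Gpc6, a glypican that carries heparan sulfate on the cell surface, had 266 ± 137 against 146 ± 62.2 (0.81 ± 0.34, limma adjusted p = 0.445). Medians by limma were 0.01 for the 23 adaptors and transducers and 0.08 for the 18 feedback and target genes. Of the transducers, Mapk3, which encodes the kinase ERK1, stood at 2980.2 ± 529 against 1475 ± 798 normalized counts, a log2 difference of 1.22 ± 0.34 (limma adjusted p = 0.382). Spry and Dusp genes, which ERK induces as its own brakes, are among the feedback genes. Of all 18 feedback and target genes, 10 were higher and 8 lower by limma. By DESeq2 and by edgeR 14 were higher and 4 lower, with a median of 0.13 by each.

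In KO_IgG against WT_IgG the genes with the smallest p were Sdc3, Spred2 and Sdc2. Syndecan-3 (Sdc3), a cell-surface heparan sulfate proteoglycan, had 2142 ± 374 against 1392 ± 262 normalized counts, a log2 difference of 0.62 ± 0.18 (limma adjusted p = 0.255). It was the single pathway gene that DESeq2 called there (adjusted p = 0.0429), and the adjusted p ran from 0.0429 to 0.579 over the alternatives. Spred2, an inhibitor of Ras-ERK signaling, had 107 ± 34.6 against 55.2 ± 13.2 normalized counts (0.91 ± 0.29, limma adjusted p = 0.290), and syndecan-2 (Sdc2) 1067 ± 373 against 629 ± 177 (0.75 ± 0.25, adjusted p = 0.310). The groups overlapped for each of the 3 genes.

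With γδ TCR blockade the 3 genes with the smallest p were Gpc4, Sdc2 and Sdc3. Glypican-4 (Gpc4) was at 763 to 1151 normalized counts in KO_gdTCR and at 178 to 684 in KO_IgG, a log2 difference of 1.60 ± 0.37 (limma adjusted p = 0.0657). Sdc2 was at 1253 to 1769 against 617 to 1259 (0.86 ± 0.23, limma adjusted p = 0.0666) and Sdc3 at 877 to 1244 against 1246 to 1834 (-0.64 ± 0.17, adjusted p = 0.0666). The groups did not overlap for Gpc4 and Sdc3, where 4.57% of all genes lay wholly higher and 4.98% wholly lower. For Sdc3 they were separated by less than 2 normalized counts. In all 3 genes the control nearest to KO_gdTCR was KO_IgG replicate 4, which shares the library profile of KO_gdTCR. Without it the differences were 2.01 for Gpc4, 1.09 for Sdc2 and -0.76 for Sdc3. Sdc3 had its mean higher in KO_IgG than in WT_IgG and lower in KO_gdTCR than in the same KO_IgG libraries, which both differences share.

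Which genes were called depended on the tool and on KO_IgG replicate 4. With every library kept, limma and edgeR called 0 of the 62. DESeq2 called Frs2, Sdc2, Cdh2, Hspg2, Gpc4 and Sos2 higher and Sdc3 lower. Without KO_IgG replicate 4, limma called 8 of the 62 (12.9%, against 14.3% of all genes), namely Rps6ka1, Frs2, Sdc2, Fosl1, Gpc4, Sos2 and Ptpn11 higher and Sdc3 lower. Gpc4 then differed by 2.01 ± 0.20 (limma adjusted p = 4.74e-05) and Sdc3 by -0.76 ± 0.15 (adjusted p = 0.00505). Fosl1, a transcription factor of the AP-1 family that ERK induces, was scarce, with a median of 0.261 CPM. Its highest library was KO_IgG replicate 4, at 5.80 CPM. It differed by 2.87 ± 1.07 (limma adjusted p = 0.149) with that control and by 4.05 without it. Without that control Fosl1 passed the filter through its KO_gdTCR values, so its call among the 8 is not a test result. As the 4 KO_gdTCR libraries then face only controls of another depth and pseudogene share, the part of this in the calls cannot be told apart from that of the blockade.

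**Figure D5:**
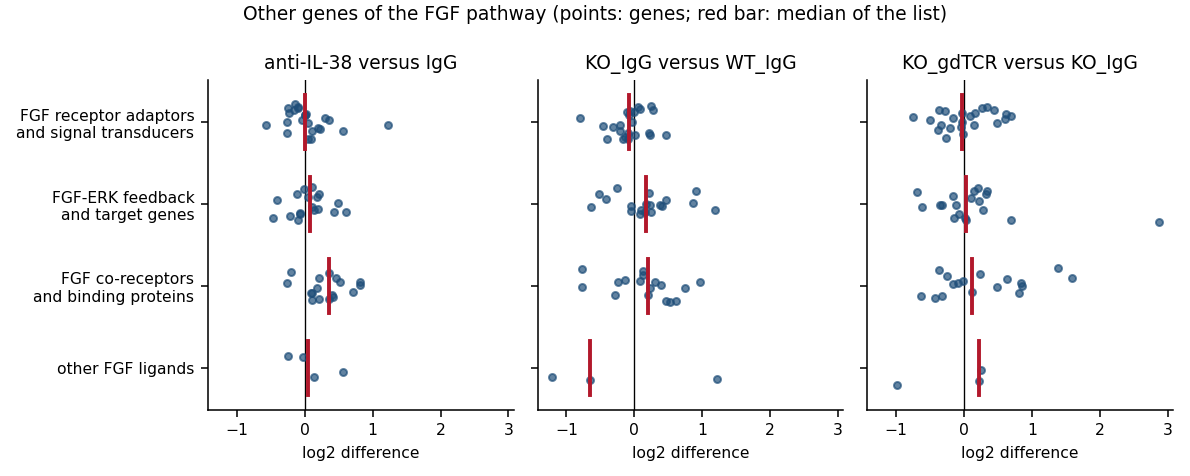
Difference between groups on the log2(normalized count + 1) scale (horizontal axes) for the other tested genes of the FGF pathway (points), by list (rows) and comparison (panels), with the median of each list as a red bar. The 17 co-receptors and binding proteins have a median of 0.35 by limma with anti-IL-38, and the point farthest to the right with γδ TCR blockade is Fosl1 at 2.87.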

How the data were processed

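RNA of dissociated tumors was sequenced with QuantSeq 3′ mRNA FWD libraries. The processing notes of the submitters name STAR, HTSeq, DESeq2 and GRCm39, with no versions. The signal values that the authors deposited are normalized counts, that is, gene counts divided by a size factor of each library, in a table of 19 libraries (IgG, anti-IL-38, WT_IgG and KO_IgG) and a separately scaled table of 8 (KO_IgG and KO_gdTCR). The 4 KO_IgG libraries are in both, with identical reads for every gene. Whole reads were recovered from the steps between low values (tolerance 0.0001%) and gave depth, CPM and the input of count models. In WT_IgG replicate 1 a read was worth 0.9959 normalized counts, close to 1, and 100% of its values were whole multiples of that step.

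Comparisons were made within a table on log2(normalized count + 1) with limma 3.58.1 (R 4.3.3, two-sided, variance trend), for genes with a mean of at least 5 normalized counts, with Benjamini-Hochberg adjustment over all of them and a threshold of 0.05. Differences are on that scale, which understates those of low genes. Alternatives were pseudocounts of 0.5 and 5, no filter or a mean of at least 20, TMM scaling, edgeR 4.0.16, DESeq2 1.42.0, a replicate block and leaving out each library. The steps were tested on simulated data. The labels do not say that libraries of a group are independent beyond being separate samples, so p-values measure the spread between these samples. Deviations of same-numbered replicates were weakly correlated (from -0.17 to 0.07), and the main fits did not pair samples. In KO_IgG against WT_IgG the same number was the best partner for replicates 2 and 4, and in the other comparisons for none. Weak correlations cannot exclude that the numbers pair samples.

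The members and lists were chosen with earlier results of these data known. Fgfrl1 in all comparisons and Fgf10 in KO_IgG against WT_IgG were described without a test, although a test had been planned for Fgfrl1 in the blockade and in the difference between effects. The adjustment over the 32 relations includes those of Fgfrl1. Pathway genes named are the 3 with the smallest limma p in each comparison and any past the threshold, genes like Fgfrl1 are the 5 with the highest r, and others named were chosen after their values were seen. Of 47643 gene identifiers 47224 had a symbol in GENCODE M21, which was used for names, gene types and exon overlap but not for coordinates, since its build is not that of the files. Spry3 was not analysed here.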

Additional observations from a re-analysis of the deposited data

Results flagged for a closer look

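Of the 45 combinations of a member and a group, 2 held a library far from the rest of its group, where chance alone gives about 1 in 20. Fgf1 was at 45.3 CPM in anti-IL-38 replicate 5, while the other libraries of the group lay between 24.6 and 31.97 CPM. Fgf7 was at 2.90 CPM in WT_IgG replicate 4, with the others between 0.921 and 1.04 CPM. Without that library the log2 difference of Fgf7 between KO_IgG and WT_IgG was 0.05 instead of -0.33.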

How the results depend on the processing

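No member that was tested was called in any comparison under any alternative that was run. Fgfrl1, and Fgf10 in KO_IgG against WT_IgG, were not tested in any of them. Pathway genes called by limma numbered 0 in each comparison. In KO_gdTCR against KO_IgG the limma count over fits leaving out 1 library ranged from 0 to 8, with 8 without KO_IgG replicate 4. DESeq2 called 1 in KO_IgG against WT_IgG and 7 in KO_gdTCR against KO_IgG. Of the 32 relations with marker lists 7 passed by Pearson's r, against 2 in the neutralization experiment alone, 0 in the genotype comparison alone, 3 without the pair of libraries farthest from the median, among them Fgfr1 with fibroblast markers, which was not among the 7, and 3 without IgG replicate 5, the last chosen after seeing the data. The cause of these shifts was not tested, other than that fewer libraries entered. With a replicate block the count of tested members called was 0 in each comparison, the pooled Fgfrl1 difference was 0.69, and the block changed no call. Leaving out 1 library turned the sign of differences that were not called. In KO_IgG against WT_IgG these ranged from -0.48 to 0.074 for Fgfr2, -0.17 to 0.75 for Fgfr4, -0.32 to 0.0037 for Fgf1, -0.27 to 0.050 for Fgf2 and -0.52 to 0.047 for Fgf7. In KO_gdTCR against KO_IgG they ranged from -0.47 to 0.39 for Fgfr4, -0.039 to 0.34 for Fgfrl1 and -0.081 to 0.28 for Fgf7, which was -0.00056 by edgeR. The difference between the antibody and knockout effects ranged from -0.42 to 0.28 for Fgfr3 and -0.62 to 0.28 for Fgf7, and for Fgf7 was 0.0036 with a pseudocount of 5, 0.22 by edgeR and 0.21 by DESeq2. Depth limits Fgfr4, Fgf7 and Fgf10 most, with at most 24, 33 and 24 reads in a library.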
